A study of Coprinopsis cinerea with 6 samples.

Results

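The genes described here are 51 of the 13615 gene models of the mushroom Coprinopsis cinerea. They have a low or moderate level in the gill of the wild type and are lower by at least 8-fold in the gill of an SRR1 mutant. They were chosen by their measured levels. The level is the count of read pairs in 1 library divided by the total of that library and scaled to counts per 1000000 (CPM), over all gene models and with no other scaling. A gene was taken when its mean over the 3 wild type libraries was at least 5 and under 100 CPM and the ratio of the group means, with 0.5 CPM added to each, was at least 8. Since the choice used the levels in both groups, the difference between the groups is given as a description and is no independent evidence of it.

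Gills are the plates under the cap of a mushroom, and their surface carries the basidia. In each basidium the nuclei fuse and pass through meiosis, and the spores then form on outgrowths of the cell, take their final shape and build a wall. In this species the basidia of a gill pass through these stages in close synchrony, which has made it a model for the study of meiosis and of spore formation. The series title names SRR1 as a transcription factor that drives the shaping of spores.

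RNA sequencing was done on gill tissue of young fruiting bodies. Total RNA went into an mRNA library kit, and 3 libraries of the wild type are set beside 3 of the SRR1 mutant. The comparison asks which transcripts differ when SRR1 is mutated. The labels give a sample code for each library (WT_2g in the wild type, C45_22_2L in the mutant) without its meaning, and they name no kind of mutation, age or growth condition. All mutant codes share the same stem, and whether this stands for 1 line is not said. Replicates carry numbers, with no word on whether separate fruiting bodies or cultures were used, so the spread between libraries may be partly technical.

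The libraries held 18333896 to 24373334 counted read pairs, so that 1 CPM stands for 18.3 to 24.4 pairs. The deposited identifiers are not paired with gene names, and 0 of 13615 matched the reference table of 13657 genes, so no function is given for any gene, SRR1 was not identified, and the labelled tissue could not be checked against marker genes. Genes are given by their position on the scaffolds of the deposited table, and the sources used here do not give its genome build. No gene of the 51 overlapped a neighbouring model or shared all its coding exon lengths with another model. The closest neighbour, on the other strand, lay 0 bp behind the gene on scaffold_1 from 4039105 to 4039383. Whether reads that run past the coding end of such a neighbour were counted in a gene of the 51 was not tested. The edgeR scaling factors were 0.950, 0.974 and 0.883 in wild type replicates 1, 2 and 3. They were higher, at 1.063, 1.072 and 1.073, in mutant replicates 1, 2 and 3. The choice of the genes did not use them.

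As a group the 51 genes made up a small part of the gill transcriptome. Their summed level was 1385, 1180 and 2685 CPM in wild type replicates 1, 2 and 3 and 105, 96.5 and 92.1 CPM in mutant replicates 1, 2 and 3. The mutant libraries lay close together, whereas wild type replicate 3 held about as much as the other 2 wild type libraries together. The median wild type mean was 24.5 CPM, with quartiles at 16.2 and 51.4 CPM, and the median mutant mean was 1.17 CPM, with quartiles at 0.369 and 2.53 CPM. In a bulk sample, fewer cells that make a transcript and less of the transcript per cell cannot be told apart.

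In each of the 51 genes every wild type library was above every mutant library, a condition met by 9.54% of all tested genes, and all 51 were called lower by edgeR, compared with 6.99% of all tested genes. These counts follow from the choice of the genes and nothing is read from them. The margin between the groups varied more. The lowest wild type library was at least 8 times the highest mutant library, with 0.5 CPM added to each, in 19 of the 51 genes, and the smallest such ratio was 2.4. The group ratio was at least 32 in 8 genes, 16 to 32 in 8 genes and under 16 in 35 genes.

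**Figure D1:**
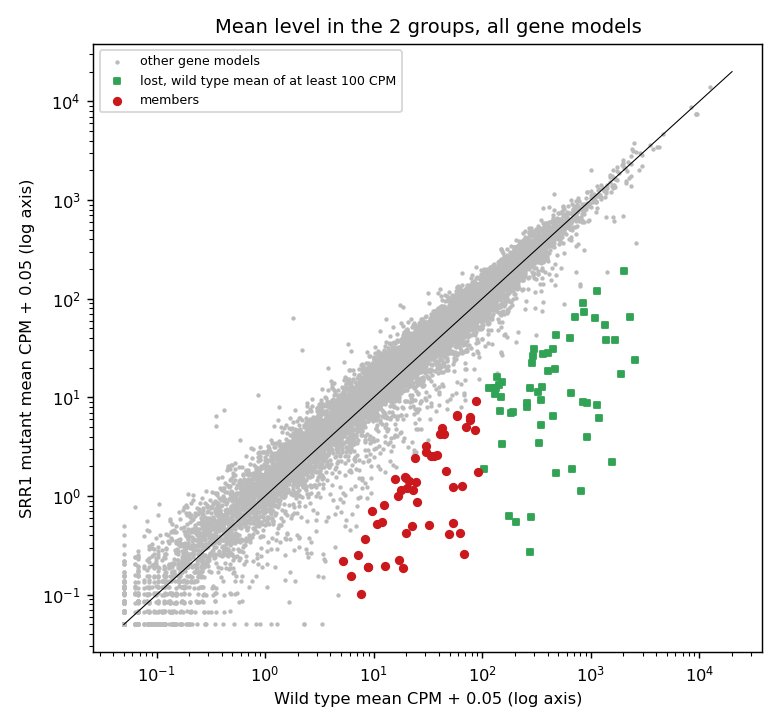
Mean CPM in the mutant (vertical, log axis) against mean CPM in the wild type (horizontal, log axis) with 0.05 added, 1 point per gene model; the line marks equal levels. The 51 members (red) reach from a wild type mean of 5.12 to 91.7 CPM. The 58 genes of at least 100 CPM with a ratio of at least 8 (green) lie to the right.

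Genes lay close to each threshold on both sides. The genes just inside the ratio of 8 had ratios of 8.04, 8.38 and 8.40, and those just outside had 7.79, 7.69 and 7.66. At the upper limit the wild type means were 91.7, 87.0 and 86.0 CPM inside and 105, 115 and 129 CPM outside. At the lower limit they were 5.12, 6.16 and 7.07 CPM inside. Only 1 gene with a wild type mean under 5 CPM had a ratio of at least 8, at 4.64 CPM. The 0.5 CPM added to each mean limits the ratio there, since a gene of 5 CPM with no mutant read pair would have a ratio of 11.

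The working description of these transcripts as lost held only in part. No gene of the 51 was without a read pair in all 3 mutant libraries, and 7 were at 0 in at least 1 of them. The mutant mean was under 0.5 CPM in 19 genes, 0.5 to 1 CPM in 4, 1 to 5 CPM in 22 and at least 5 CPM in 6. The 19 genes with the lowest mutant means held 3 to 28 read pairs over the 3 mutant libraries together, and their wild type means ran from 5.12 to 68.4 CPM, with a median of 12.7 CPM. The other 32 genes had a median wild type mean of 34.8 CPM.

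The fewest read pairs in the mutant belonged to CopciAB_437207.T0 on scaffold_3 from 1177120 to 1177940, which has 408 coding bp in 2 exons on the plus strand. It held 0, 1 and 2 read pairs in mutant replicates 1, 2 and 3. In wild type replicates 1, 2 and 3 it stood at 7.30, 4.31 and 11.3 CPM. The group ratio was 14.8. This identifier and the next were picked for printing after their values were seen.

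The gene with 15 coding exons on scaffold_8 from 760596 to 762384 was at 0 in mutant replicates 1 and 2 and held 6 read pairs in replicate 3. It stood at 4.76, 2.89 and 10.8 CPM in wild type replicates 1, 2 and 3. The other 6 genes with a 0, the scaffold_3 gene among them, had it in 1 mutant library each. Zeros fell on 4 genes in mutant replicate 1, on 3 in replicate 2 and on 1 in replicate 3, so no single mutant library supplied them all.

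Near-silence in the mutant was not limited to genes of low wild type level. Of the 19 genes with a mutant mean under 0.5 CPM, 7 had a wild type mean under 10 CPM, 7 had 10 to 30 CPM and 5 had at least 30 CPM. Those 5 were ranks 1, 2, 3, 4 and 7 in the order of the group ratio.

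The highest ratio, 96.9, was that of CopciAB_480560.T0 on scaffold_6 from 2374458 to 2375270, which has 633 coding bp in 4 exons on the plus strand. It stood at 46.9, 43.7 and 115 CPM in wild type replicates 1, 2 and 3 and at 0.382, 0.20 and 0.0518 CPM in mutant replicates 1, 2 and 3, where it held 12 read pairs in all. Wild type replicate 3 was the high library, and replicates 1 and 2 were close to each other.

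The next ratios, 72.4 and 58.0, rested mainly on wild type replicate 3. The gene on scaffold_9 from 225624 to 226478 stood at 10.3, 14.7 and 163 CPM in the wild type and at 0.491, 0.0999 and 0.518 CPM in the mutant libraries. The gene on scaffold_12 from 14295 to 15197 stood at 11.6, 5.31 and 131 CPM in the wild type and at 0.164, 0.600 and 0.311 CPM in the mutant. In both the wild type SD, 86.7 and 70.7 CPM (n = 3), exceeded the mean of 62.5 and 49.2 CPM, yet the lowest wild type library was still above the highest mutant library.

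In the other 3 of the 6 highest ratios the highest wild type library was 2.56, 3.30 and 1.68 times the lowest, with 0.5 CPM added to each. The gene with 18 coding exons on scaffold_12 from 2148246 to 2150114 stood at 46.4, 32.6 and 84.0 CPM in the wild type and at 0.218, 0.300 and 0.932 CPM in the mutant libraries. The gene on scaffold_9 from 628046 to 628802 had the highest wild type mean of the 51, standing at 54.0, 51.1 and 170.0 CPM in the wild type and at 1.64, 1.45 and 1.97 CPM in the mutant libraries. The gene on scaffold_11 from 1381913 to 1382309 stood at 52.4, 55.8 and 88.4 CPM in the wild type and at 1.09, 1.15 and 1.40 CPM in the mutant. The last 2 of these kept a low but measurable level in every mutant library.

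**Figure D2:**
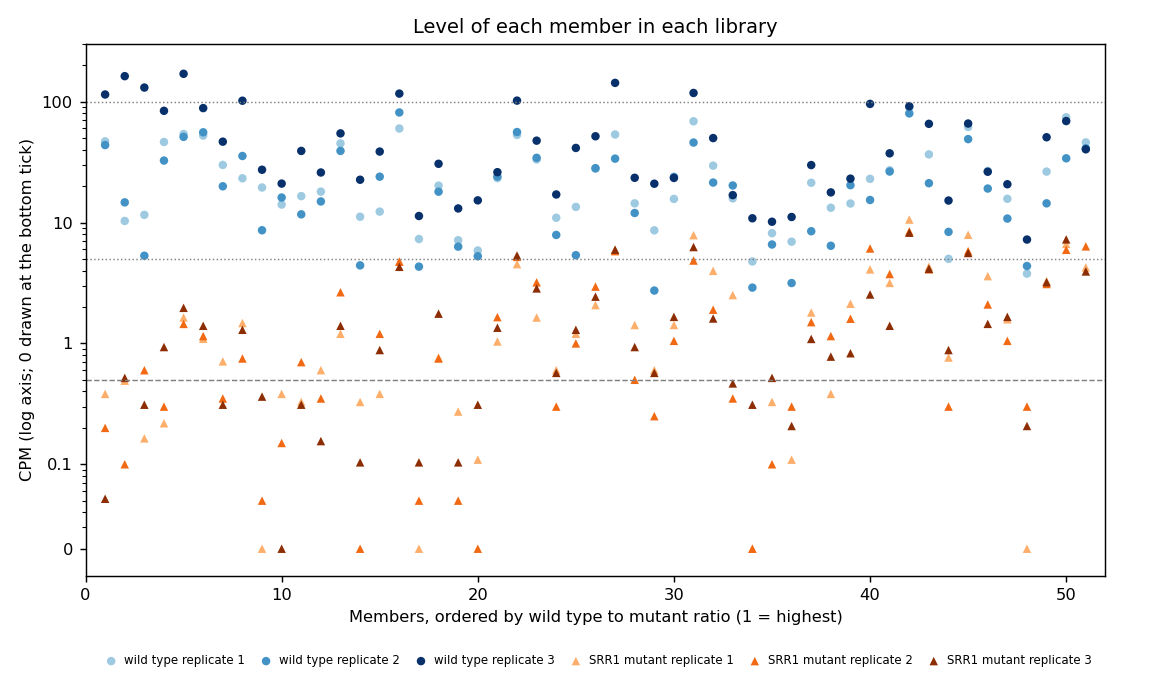
CPM of each of the 51 genes (horizontal, ordered by group ratio) in each library (vertical, log axis, 0 at the bottom tick); circles are wild type and triangles mutant libraries, the dotted lines mark 5 and 100 CPM and the dashed line 0.5 CPM. Every circle stands above every triangle of its gene, replicate 3 is the top circle in 46 genes, and 19 genes have a mutant mean under 0.5 CPM.

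Other genes kept a clear remainder in the mutant. The gene on scaffold_8 from 669925 to 671113, with 2 coding exons, had the highest mutant mean of the 51. It stood at 89.4, 80.0 and 91.6 CPM in the wild type and at 10.6, 8.44 and 8.24 CPM in the mutant, with a ratio of 9.12. The gene on scaffold_9 from 664172 to 666069 stood at 68.8, 45.9 and 118 CPM in the wild type and at 7.85, 4.85 and 6.27 CPM in the mutant. By their counts these genes were reduced and not silenced, with 522 and 362 read pairs over the 3 mutant libraries. Multi-mapping reads were counted, and whether all these pairs came from these genes was not tested.

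The remaining genes of highest wild type mean had the same character. The gene on scaffold_12 from 287122 to 288864 stood at 59.9, 81.4 and 117 CPM in the wild type and at 4.75, 4.75 and 4.30 CPM in the mutant libraries. The gene on scaffold_4 from 2332938 to 2334225 stood at 53.5, 33.8 and 143 CPM in the wild type and at 5.95, 5.80 and 5.96 CPM in the mutant libraries. The gene on scaffold_6 from 379996 to 381890 stood at 53.1, 56.0 and 102 CPM in the wild type and at 4.53, 5.2 and 5.34 CPM in the mutant. In all 3 the mutant libraries lay close together and wild type replicate 3 was the highest library.

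Over the 51 genes, the highest mutant library was a median of 1.58 times the lowest, with 0.5 CPM added to each, and at least 2 times in 5 genes. The highest mutant library was replicate 1 in 20 genes, replicate 2 in 14 and replicate 3 in 17. The widest mutant spread was that of the gene on scaffold_4 from 3474402 to 3477780, with 2.51, 0.350 and 0.466 CPM in mutant replicates 1, 2 and 3. Its wild type libraries were close together, at 15.8, 20.2 and 16.9 CPM.

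Levels of different genes can be compared per coding length. On that scale the 51 genes ran from 2.75 to 193 CPM per coding kb in the wild type, with a median of 25.8, compared with a median of 21.2 in the 6889 other genes of 5 to under 100 CPM. The 5 highest were, in order, the genes that start at 1381913 on scaffold_11, at 1891367 on scaffold_7, at 628046 on scaffold_9, at 2374458 on scaffold_6 and at 225624 on scaffold_9. Their levels were 193 ± 59 (SD, n = 3), 145 ± 114, 131 ± 97, 108 ± 63 and 108 ± 150 CPM per coding kb. The differences between neighbours in this order were smaller than the spread between the wild type libraries.

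The wild type libraries differed from each other in these genes, and mostly in the same way. The highest wild type library was at least 2 times the lowest, with 0.5 CPM added to each, in 28 of the 51 genes (54.9%), compared with 17.3% of the other genes of 5 to under 100 CPM. The median of this ratio was 2.30 in the 51 genes and 1.5 in the others. Replicate 3 was the highest wild type library in 46 of the 51 genes (90.2%), compared with 26.0% of the others, and replicate 2 was the lowest in 35. The 58 genes of at least 100 CPM with a group ratio of at least 8 are called abundant lost genes here. Their mutant means had a median of 12.3 CPM and reached 190 CPM, so they too were not all silent. Their median ratio of highest to lowest wild type library was 2.05, and replicate 3 was the highest in 89.7% of them. The choice favours genes with 1 high wild type library, so this spread is not independent of it.

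**Figure D3:**
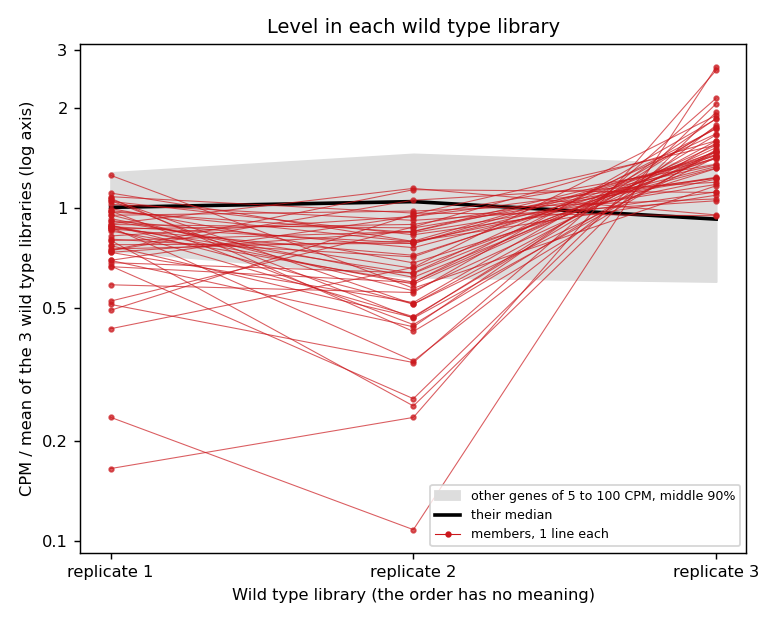
Level of each of the 51 genes in each wild type library divided by its wild type mean (vertical, log axis), 1 red line per gene, with the middle 90% (grey) and the median (black) of the 6889 other genes of 5 to under 100 CPM. Replicate 3 lies above the wild type mean for nearly all of the 51 genes, with a median of 1.45, and below it in the median of the others, at 0.927.

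A level that the choice did not use is that of a library left out of it. A ratio of that level to the other group is only partly independent, since the mean of the other group did enter the choice. When the same thresholds were applied without wild type replicate 3, they took 40 genes, of which 38 are among the 51. In the library left out, 39 of these 40 genes were at least 8 times the mutant mean, with 0.5 CPM added to each, and the lowest was at 7.64 times. Wild type replicate 3 was the highest of the wild type libraries in 36 of the 40, compared with 26.1% of the other genes of that level, and its median level was 1.80 times the mean of replicates 1 and 2, compared with 0.896 times in the others. So the high level of replicate 3 in these genes was present where that library had no part in the choice. It is a value of 1 library and was not tested.

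The other wild type libraries, left out in turn, stood lower. Without replicate 2, 56 genes were taken and 29 of them were at least 8 times the mutant mean in that library, with a lowest ratio of 2.38. Replicate 2 was the lowest of the wild type libraries in 40 of these 56. Without replicate 1, 54 genes were taken and 42 were at least 8 times the mutant mean in that library, with a lowest ratio of 3.64. No gene in either set was at or under the mutant level in the library left out. Among all genes of 5 to under 100 CPM, 0.418% to 0.998% were at least 8 times the mutant mean in the wild type library left out.

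Leaving out mutant libraries moved the set little. The thresholds then took 49, 51 and 49 genes without mutant replicates 1, 2 and 3, of which 49, 48 and 48 are among the 51. In the mutant library left out, the wild type mean was at least 8 times its level in 41, 43 and 44 of them, and the lowest ratio was 5.26. The wild type mean in these ratios also served the choice, so only the level of the library left out is independent of it. Among all genes of 5 to under 100 CPM, 0.692% to 0.764% reached 8 times in the mutant library left out.

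The genes at the ends of the wild type spread show its range. The largest ratios of highest to lowest wild type library were 22.6 and 15.1, in the genes on scaffold_12 from 14295 to 15197 and on scaffold_9 from 225624 to 226478 described above. The next was 7.14, in the gene on scaffold_10 from 1067834 to 1068294, standing at 13.5, 5.37 and 41.4 CPM in wild type replicates 1, 2 and 3 and at 1.20, 0.999 and 1.30 CPM in the mutant. In all 3 the high library was replicate 3.

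The steadiest genes had nearly equal wild type libraries. The gene on scaffold_13 from 232277 to 234217 stood at 23.3, 24.0 and 26.1 CPM in the wild type and at 1.04, 1.65 and 1.35 CPM in the mutant libraries. The gene on scaffold_9 from 1184948 to 1186428 stood at 46.0, 41.1 and 40.3 CPM in the wild type and at 4.25, 6.35 and 3.94 CPM in the mutant. With the scaffold_8 gene of highest mutant mean, given above, these had ratios of 1.12, 1.14 and 1.14 between the highest and lowest wild type library. All 3 met the ratio of 8 by the choice of the genes.

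The level of wild type replicate 3, compared with replicates 1 and 2, was related to coding length. The ratio of wild type replicate 3 to the mean of replicates 1 and 2 had a Spearman correlation with coding length of -0.38 across the 51 genes and -0.37 across the 6889 others. Genes share their libraries, so these values describe the libraries. Among genes of at most 1000 coding bp the median of that ratio was 1.97 in 25 of the 51 and 1.03 in the others, and among longer genes it was 1.55 in 26 of the 51 and 0.832 in the others. The wild type levels behind these medians entered the choice of the 51, and the part of coding length in the pattern was not tested.

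The 51 genes were somewhat shorter than other genes of their level. Their median coding length was 1020 bp, with quartiles at 660 and 1545 bp, compared with 1290 bp in the others of 5 to under 100 CPM, 1332 bp in the 58 abundant lost genes and 1113 bp in all gene models. Genes of at least 2000 coding bp were 3 of the 51 (5.88%) and 21.3% of the others. Short genes, with no more than 500 coding bp, made up 10 of the 51 (19.6%) and 11.05% of the others. These shares were not tested.

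The shortest were a gene of 201 coding bp in 3 exons on scaffold_3 from 2951463 to 2951809, a gene of 225 bp in 2 exons on scaffold_1 from 4039105 to 4039383 and a gene of 231 bp in 6 exons on scaffold_6 from 154560 to 155114. Their wild type levels were 10.8 ± 9.3, 11.97 ± 4.7 and 16.6 ± 6.0 CPM (SD, n = 3), and their mutant levels 0.473 ± 0.194, 0.490 ± 0.165 and 0.950 ± 0.460 CPM. The longest were a gene of 2709 bp in 13 exons on scaffold_4 from 3474402 to 3477780, one of 2022 bp in 10 exons on the same scaffold from 3663714 to 3666269 and one of 2013 bp in 10 exons on scaffold_7 from 2264313 to 2266800. Their wild type levels were 17.6 ± 2.3, 30.3 ± 6.1 and 44.7 ± 44.4 CPM and their mutant levels 1.11 ± 1.21, 2.77 ± 1.22 and 4.24 ± 1.78 CPM. The 3 shortest genes thus had lower wild type means than the 3 longest in CPM, which is not divided by length. Per coding kb the order was reversed. In the order given, the 3 shortest stood at 53.55, 53.19 and 71.91 CPM per coding kb in the wild type. The 3 longest stood at 6.514, 14.97 and 22.22.

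Genes with 2 or 3 coding exons were frequent among the 51. There were 22 of them (43.1%), compared with 25.3% of the others of that level, and 2 genes had a single coding exon (3.92%, compared with 7.93%). The median was 4 coding exons in the 51 and 5 in the others. A further 8 genes (15.7%) had at least 10 coding exons, compared with 18.1%. In some of these the exons were very short: the gene with 18 exons on scaffold_12 had 933 coding bp, a mean of 51.8 bp per exon, the gene with 15 exons on scaffold_8 had a mean of 63.6 bp, and the short gene of 6 exons on scaffold_6 had the lowest mean, 38.5 bp. The median over genes of the mean exon length was 204 bp in the 51 and 235 bp in the others.

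The distance to the next coding sequence on the 5′ side was long in these genes. It had a median of 959 bp, with quartiles at 678.5 and 1668 bp, compared with 522 bp in the others of that level, 671 bp in the abundant lost genes and 644 bp in all gene models. No gene of the 51 had less than 300 bp on this side, the shortest being 319 bp, whereas 27.6% of the others had less. On the 3′ side the median was 478 bp in the 51 and 444 bp in the others. The distances run between coding ends and so include untranslated regions.

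The longest 5′ distance, 10732 bp, was that of the gene on scaffold_13 from 948197 to 949384, which stood at 27.9, 28.2 and 51.7 CPM in the wild type and at 2.07, 2.95 and 2.43 CPM in the mutant. In 33 of the 51 genes (64.7%) the neighbour on the 5′ side lay on the strand of the gene itself, as it did in 45.3% of the others. The median 5′ distance was 959 bp to a neighbour on the same strand and 982 bp to one on the other strand in the 51, and 570 bp and 474.5 bp in the others. The median was longer in the 51 in both arrangements. These differences were not tested.

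**Figure D4:**
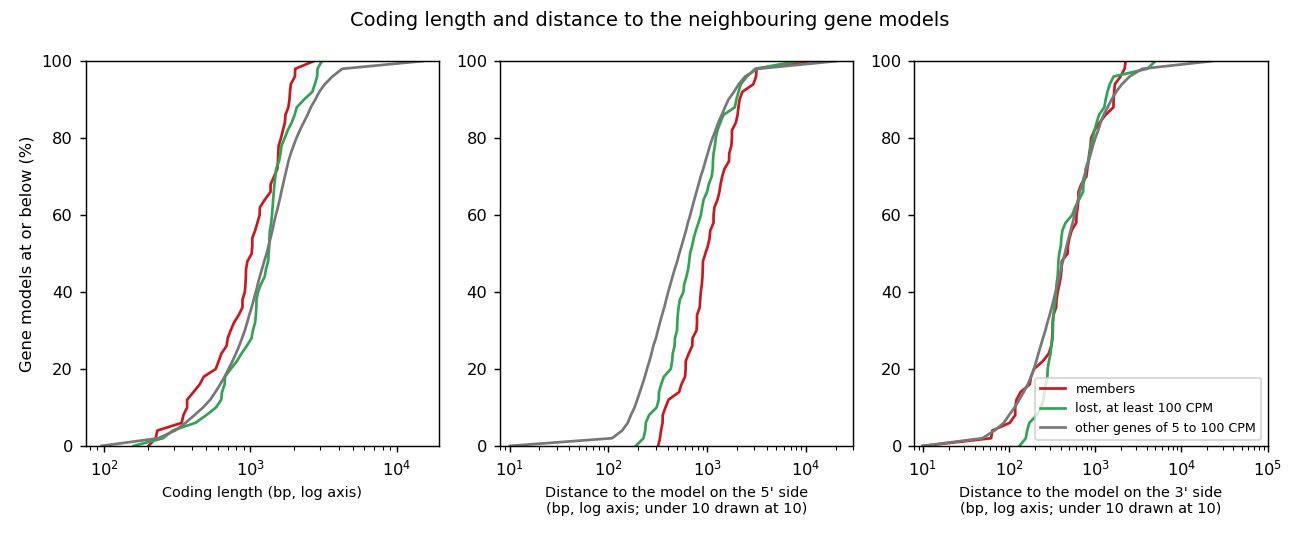
Share of gene models at or below a given coding length (left), distance to the neighbouring model on the 5′ side (middle) and on the 3′ side (right), on log axes, for the 51 members, the 58 lost genes of at least 100 CPM and the 6889 other genes of 5 to under 100 CPM. The members are set to the right in the 5′ distance, with a median of 959 bp compared with 522 bp, and follow the others closely in the 3′ distance, with 478 bp compared with 444 bp.

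The genes were spread over the genome, on 13 of 20 scaffolds, and the 7 scaffolds without one hold 122 models in all. Scaffold_6 had 9 of them, scaffold_9 had 7, and scaffolds 3, 8 and 13 had 5 each. As a share of the models of a scaffold they ranged from 0.0679% on scaffold_2 to 1.42% on scaffold_13 among these 13 scaffolds, with 0.375% over the whole genome. They lay on the plus strand in 25 cases and on the minus strand in 26.

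Most of the genes stood alone. Of the 51, 41 had neither another of the 51 nor an abundant lost gene as a direct neighbour, 6 formed 3 neighbouring pairs and 4 stood next to an abundant lost gene. Of 38 distances between consecutive members of a scaffold, 4 were within 20000 bp.

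A divergent pair on scaffold_6 shares 789 bp between its coding starts. On the plus strand lies CopciAB_480560.T0, the gene of highest ratio, and on the minus strand a gene of 606 coding bp from 2372711 to 2373668. The latter stood at 6.93, 3.16 and 11.1 CPM in the wild type and at 0.109, 0.300 and 0.207 CPM in the mutant. The 2 genes differed in wild type level, at 68.4 and 7.07 CPM, and were both near 0.2 CPM in the mutant. The models on both sides of this pair were at 18.5 and 0.423 CPM in the wild type and at 26.8 and 0.135 CPM in the mutant. The first was not called, and the second was too low to be tested.

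A second divergent pair, on scaffold_3, has 606 bp between its coding starts. The gene on the minus strand from 2471379 to 2473366 stood at 3.77, 4.37 and 7.23 CPM in the wild type and at 0, 0.300 and 0.207 CPM in the mutant libraries. The gene on the plus strand from 2473973 to 2475584 stood at 26.7, 19.1 and 26.3 CPM in the wild type and at 3.60, 2.10 and 1.45 CPM in the mutant. Here the gene of lower level was near 0 in the mutant and the other kept a remainder. The outer neighbours had wild type means of 0.116 and 0.0666 CPM and were too low to be tested.

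The pair on scaffold_13 is convergent, with 118 bp between its coding ends. The gene on the plus strand from 909366 to 910854 stood at 15.7, 23.8 and 23.4 CPM in the wild type and at 1.42, 1.05 and 1.66 CPM in the mutant libraries. The gene on the minus strand from 910973 to 912589, with 1 coding exon, stood at 15.7, 10.8 and 20.7 CPM in the wild type and at 1.58, 1.05 and 1.66 CPM in the mutant. The mutant values of the pair were nearly equal library by library, and the wild type values were not. Counting gave no strand option, and whether reads that run past a coding end entered the other gene was not tested.

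**Figure D5:**
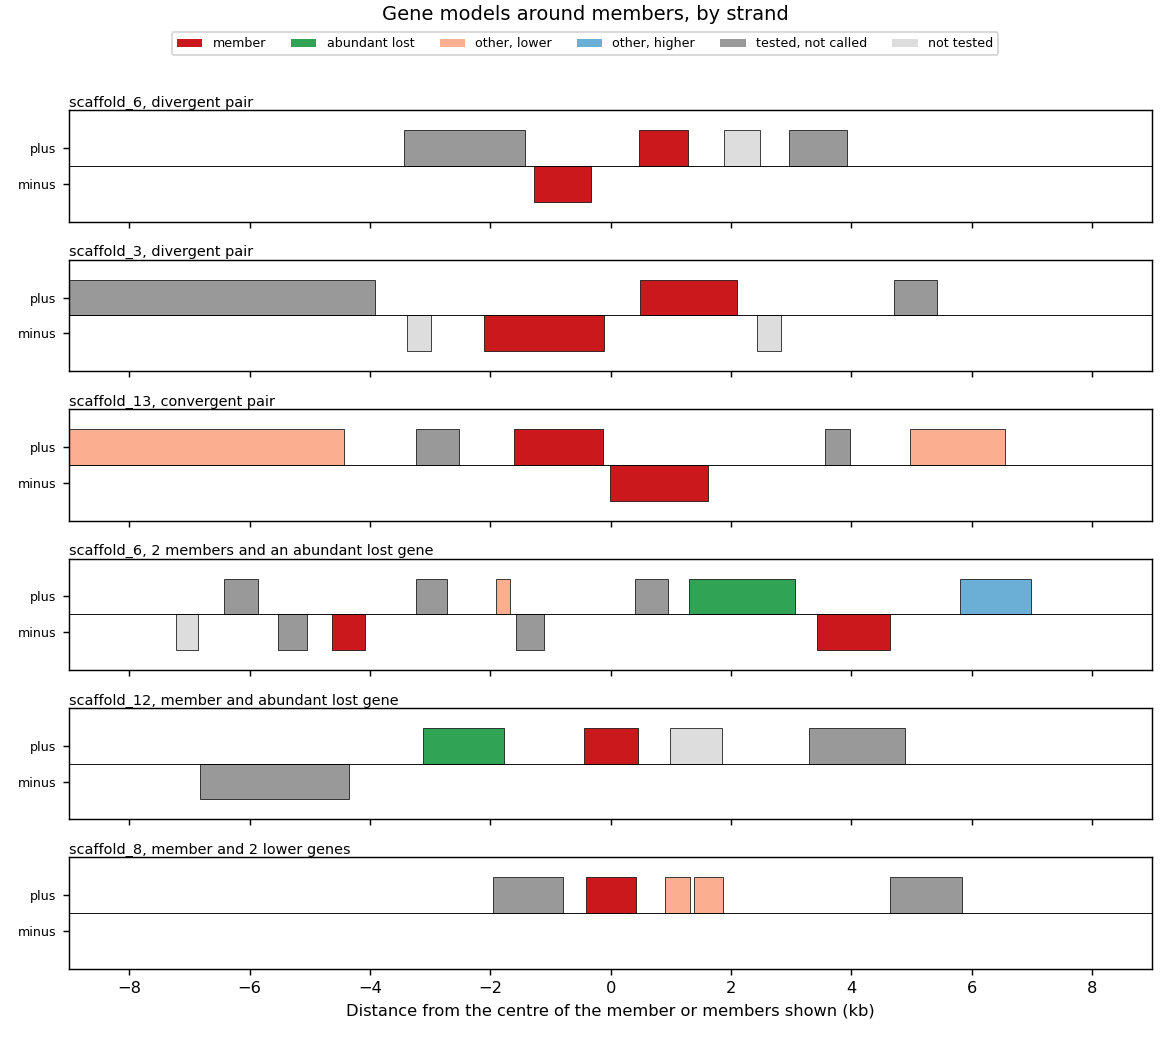
Gene models in 6 stretches around members, drawn to scale by strand against the distance in kb from the centre of the members; red marks members, green abundant lost genes, light red and blue other genes called lower and higher, and grey the rest. In the 2 divergent pairs on scaffold_6 and scaffold_3 the genes point away from each other, with 789 and 606 bp between them. Most models around the members are grey.

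The genes next to the 51 were chosen by position, and by their own levels only in that genes of the 51 were set aside. There were 96 such neighbours outside the 51, of which 80 passed the expression filter of edgeR and 16 did not. Of the 80, 11 were lower (13.8%) and 4 were higher (5.0%) in the mutant past an adjusted p of 0.05 (edgeR quasi-likelihood test, Benjamini-Hochberg adjustment over 11683 genes, two-sided), compared with 6.59% and 3.27% of all tested genes outside the 51. Their median log2 fold change was -0.01, next to 0.02 over the tested genes outside the 51. Most direct neighbours of a strongly reduced gene were thus not called in either direction, and no test of the share itself was made. Of the 11 lower neighbours, 4 are abundant lost genes. Without these genes the share was 9.21% (7 of 76), compared with 6.12% of all tested genes outside both sets. Some lower calls were less firm. Those of the genes on scaffold_6 from 459231 to 460560 and on scaffold_8 from 762784 to 765174 each held in 5 of 11 alternative fits. That of the gene on scaffold_9 from 628905 to 631797 held in 9 of 11.

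The 4 abundant neighbours had the largest changes. The gene on scaffold_12 from 11632 to 12965 lies on the same strand as the neighbouring gene at 14295, 1329 bp before it. It stood at 932, 752 and 2997 CPM in the wild type and at 2.29, 2.15 and 2.02 CPM in the mutant, a log2 fold change of -9.73 ± 0.68 SE (edgeR adjusted p = 8.73e-06). Both genes of this stretch were highest in wild type replicate 3, although the neighbour differed far more between its wild type libraries.

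The gene on scaffold_8 from 326821 to 327745 stood at 581, 279 and 1139 CPM in the wild type and at 1.80, 2.15 and 1.61 CPM in the mutant, a log2 fold change of -8.71 ± 0.60 SE (edgeR adjusted p = 7.43e-06). It follows a gene of the 51 on the same strand, from 328249 to 330198, standing at 5.87, 5.26 and 15.2 CPM in the wild type and at 0.109, 0 and 0.311 CPM in the mutant. The 2 genes of this stretch, 503 bp apart, shared the order of the wild type libraries and differed in level by a large factor. On scaffold_4 the gene from 664437 to 665696 stood at 308, 302 and 378 CPM in the wild type and at 10.2, 11.8 and 11.9 CPM in the mutant, a log2 fold change of -5.07 ± 0.22 SE (edgeR adjusted p = 5.09e-07). It is divergent from a gene of the 51 with 12 coding exons, from 660067 to 662170, with 2266 bp between their coding starts.

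On scaffold_6 an abundant lost gene lies among 2 of the 51 in a stretch of small genes. It runs from 160501 to 162267 and stood at 415, 343 and 588 CPM in the wild type and at 7.85, 6.35 and 5.02 CPM in the mutant, a log2 fold change of -6.34 ± 0.32 SE (edgeR adjusted p = 1.00e-06). The gene of the 51 next to it, from 162620 to 163835, stood at 18.01, 14.9 and 25.9 CPM in the wild type and at 0.600, 0.350 and 0.155 CPM in the mutant. The 5 models between the 2 genes of the 51 include this gene and 4 others, of which 1, from 157293 to 157532, was lower (log2 fold change -2.35, edgeR adjusted p = 0.00451) and 3 were not called. The model on the far side, from 164997 to 166183, was higher in the mutant (22.3 ± 2.3 CPM) than in the wild type (10.7 ± 1.1 CPM), with a log2 fold change of 0.86 ± 0.20 SE (edgeR adjusted p = 0.0213). That last call was lost in 5 of 11 alternative fits.

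The next 2 neighbours by size of change were of low level. On scaffold_8 the gene from 812186 to 812616, with 261 coding bp, stood at 5.58, 3.68 and 8.66 CPM in the wild type and at 0.436, 0.350 and 0.414 CPM in the mutant, a log2 fold change of -4.09 ± 0.45 SE (edgeR adjusted p = 0.000245). It follows the single-exon gene of the 51 from 810877 to 811707, which stood at 61.7, 49.0 and 65.9 CPM in the wild type and at 7.91, 5.80 and 5.59 CPM in the mutant. The model behind it, from 812679 to 813164, was also lower, at 3.03 ± 1.17 CPM in the wild type and at 0.106 ± 0.092 CPM in the mutant, a log2 fold change of -4.96 ± 0.69 SE (edgeR adjusted p = 0.00114). It was picked after its value was seen. These 3 models thus follow each other on 1 strand and were all lower. On scaffold_2 the gene from 3108356 to 3109381 stood at 5.05, 2.68 and 13.7 CPM in the wild type and at 0.655, 0.749 and 1.29 CPM in the mutant, a log2 fold change of -3.20 ± 0.61 SE (edgeR adjusted p = 0.00806). The 2 direct neighbours lie on the same strand as the gene of the 51 they follow, and both stayed past the threshold in all 11 alternative fits.

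The 4 higher neighbours had wild type means of 2.05 to 10.7 CPM. The clearest was the gene on scaffold_4 from 3477976 to 3479663, which lies 195 bp behind a gene of the 51 on the same strand. It stood at 5.42, 5.95 and 4.46 CPM in the wild type and at 16.4, 26.5 and 25.7 CPM in the mutant, a log2 fold change of 1.93 ± 0.25 SE (edgeR adjusted p = 0.000727), and it stayed past the threshold in all 11 alternative fits. The other 3, with log2 fold changes of 0.86 to 1.38, stayed past it in 5 to 8 of the 11.

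The share of lower genes did not decline evenly with distance. At 1, 2, 3, 4 and 5 models from a gene of the 51, 13.8%, 9.30%, 6.82%, 6.98% and 13.5% of the 80 to 89 tested genes outside the 51 were lower, compared with 6.59% over all such genes. The last position held 4 abundant lost genes, as many as the first. By strand, 7 of 50 tested neighbours on the same strand were lower, 1 of 12 divergent and 3 of 18 convergent neighbours.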

How the data were processed

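RNA from gill tissue was sequenced in 6 libraries. Alignment used STAR 2.6.1, as the submitters' processing notes list it. Raw counts for all gene models were deposited as a single table, written by featureCounts 2.0.1 per the file headers. That command counted read pairs over coding exons, with both ends mapped and multi-mapping reads counted, and gave no strand option. The deposited coding length is the sum of coding exons. Columns were matched to samples by description and groups were taken from titles. There is no further column of sample values, although the counting command names 7 alignment files and the table holds 6 libraries.

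The 51 genes and all comparisons were chosen with earlier results of these data known. edgeR 4.0.16 (quasi-likelihood, TMM factors, default filter, genotype only) in R 4.3.3 was fitted to 11683 genes. Its p-values were adjusted by Benjamini-Hochberg and called at 0.05, and the fit was checked on simulated counts. Those counts used the dispersions of the fit and changes smaller than those of the 51, so the check does not bear on changes of that size. Each standard error is the size of the log2 fold change over the root of its F value. Neighbours are adjacent models in coordinate order. Genes given with values were the extremes of ratio, level, wild type spread, length and threshold, the pairs, and the called neighbours of largest change. The rule for printed identifiers took genes silent in the mutant and found none. Alternatives were DESeq2 1.42.0, RLE factors, library sizes alone, no filter, a replicate block, each library left out, and other definitions. Python 3.11.15 was used otherwise.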

Additional observations from a re-analysis of the deposited data

How the results depend on the processing

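All 51 genes were lower and past the threshold in each of the 11 alternative fits that gave a value. DESeq2 gave no adjusted p for 1 of the 51. The genes were chosen by the same contrast in these libraries, so nothing is read from that count. Over all tested genes, 4.07% to 9.8% were lower in these fits. The number of genes taken was 16 at a ratio of at least 16, 58 and 60 with TMM-scaled and RLE-scaled library sizes (50 of the 51 kept in each), 39 and 57 with 1 and 0.25 CPM added, and 40 to 56 with 1 library left out. Genes silent in the mutant numbered 0 as defined, 1 with at most 3 read pairs, 19 with a mutant mean under 0.5 CPM, and 0 to 1 with 1 mutant library left out. The median ratio of highest to lowest wild type library was 2.54 with TMM-scaled library sizes. With 1 wild type library left out it was 1.40 to 2.02, 1.40 being without replicate 3, where the others of that level had 1.25. With fewer libraries this ratio can only be equal or smaller for a given gene. The values with 1 left out are therefore not compared with those over all 3. Lower neighbours numbered 11 of 80 (13.8%), 6 of 53 (11.3%) when at least 500 bp away and 7 of 50 (14%) on the same strand. Of all tested genes outside the 51, with the neighbours among them, 6.59% were lower. In a setting chosen after seeing the data they numbered 7 of 76 without abundant lost genes. With 1 library left out they numbered 8 to 14 of 80, and 3.65% to 9.41% of all tested genes outside the 51 were lower. Higher neighbours numbered 11 of 80 with library sizes alone (13.75%, compared with 8.95% of all tested genes outside the 51). They numbered 2 of 80 with the replicate block (2.5%, compared with 1.93%). At least 500 bp away they were 2 of 53 (3.77%) and on the same strand 2 of 50 (4.0%), both compared with 3.27%. With 1 library left out they were 1 to 7 of 80, compared with 0.451% to 6.29% of all tested genes outside the 51. Over all genes, 817 were lower and 380 higher; with 1 library left out 480 to 1157 were lower and 53 to 739 higher, and higher genes numbered 1041 with library sizes alone and 225 with the replicate block. Deviations of same-numbered libraries correlated at -0.05 to 0.08, so no shared deviation was seen. These values cannot tell whether the libraries were prepared in pairs. With the replicate block 703 genes were lower, 10 of them among the 80 neighbours (12.5%, compared with 5.605% of all tested genes outside the 51). No call of the 51 genes changed, from which nothing is read either, given how they were chosen. Counts of few read pairs limit what can be said of mutant levels under 0.5 CPM.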
